A study of Homo sapiens with 12 samples.

Results

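The comparison described here is the change between 24 h and 48 h in cultures exposed to Kbr, the progression within exposed cells. It rests on 6 of the 12 arrays of the series, 3 Kbr arrays at 48 h against 3 Kbr arrays at 24 h, paired by their replicate numbers. The cells were HK-2, an immortalised line made from human proximal tubule epithelium, and the labels give the Kbr dose only as high. The labels do not spell out the name Kbr. The other 6 arrays were vehicle-treated control cultures at 24 h and 48 h, 3 of each. All 12 cultures were plated 24 h ahead of treatment and were almost confluent when it began. They grew in a medium with epidermal growth factor, hydrocortisone, insulin, transferrin and selenite. The control change over the same hours serves as the background of time in culture. HK-2 is 1 line, so the 3 biological replicates named in the labels measure the spread between its cultures and not between people.

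Expression was read on Affymetrix arrays, on which each gene is covered by 1 or more probe sets, and the deposited values are on the log2 scale, so that a difference of 1 is a 2-fold change. Of 41091 probe sets with a single gene symbol, 19345 exceeded log2 4 in at least 3 of the 12 arrays and were tested. They represent 10581 genes, and the other 21746 probe sets were not tested. A probe set was called when its adjusted p in limma was under 0.05, after Benjamini-Hochberg adjustment over all 19345. The words rose and fell are used only for called probe sets. The share of probe sets over log2 4 lay between 39.1% and 39.9% on the 12 arrays. These are bulk cultures, so fewer cells and less RNA per cell cannot be told apart, and the arrays were put on a common scale.

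The label of the cells was only partly borne out by markers of the proximal tubule. PAX8, a transcription factor kept through the life of renal epithelium, was well expressed, and so was the amino acid transporter subunit SLC3A1. The other 9 of the 11 proximal tubule markers on the array, among them the megalin gene LRP2, CUBN and SLC34A1, stayed at or under log2 4 on all 6 Kbr arrays. None of 6 leukocyte markers exceeded that level on a Kbr array, and 1 of 8 endothelial markers did. Over it were also 3 of 14 markers of other nephron segments, SCNN1A, PODXL and SLC12A1, and 4 of 9 of squamous epithelium, KRT10, SFN, SPRR1A and SCEL. Of 8 fibroblast markers 3 were expressed, DCN, LUM and COL1A1, and these come up again with the matrix genes. The 3′ to 5′ ratio of the GAPDH control probe sets, a measure of RNA integrity, changed by -0.00 ± 0.03 (log2, mean ± SD of 3 pairs) between the times, and that of ACTB by 0.10 ± 0.02.

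Some background on the genes that lead the results is useful first. When unfolded proteins build up in the endoplasmic reticulum, the sensors PERK, IRE1 and ATF6 start the unfolded protein response. IRE1 splices the message of XBP1, and XBP1 and ATF6 raise chaperones such as HSPA5, also called BiP. PERK and related kinases that sense amino acid shortage, haem loss or double-stranded RNA phosphorylate the translation factor eIF2α. That slows protein synthesis but favours translation of ATF4, and the whole is called the integrated stress response. ATF4 and its partner CHOP, the product of DDIT3, raise genes for amino acid uptake and synthesis and also PPP1R15A, which reverses the phosphorylation. Interferon-stimulated genes respond to interferons and encode proteins that hinder viruses. Metallothioneins are small cysteine-rich proteins that bind zinc, copper and cadmium and are raised by the metal-sensing factor MTF1.

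Between 24 h and 48 h, 2460 probe sets rose and 3213 fell in the Kbr cultures, which is 12.7% and 16.6% of those tested. The change reached 2-fold in 260 of the rises and 464 of the falls, and the median change over all probe sets was -0.01. In genes, 1761 had a probe set that rose, 2391 had one that fell and 78 had both. With the replicate number left out of the fit as a block, 1153 probe sets rose (5.96%) and 1533 fell (7.92%). All 2686 of these were among the 5673 called with the block.

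The 3 replicate pairs did not move by the same amount. The root mean square of the log2 change over all tested probe sets was 0.575 in pair 1, 0.526 in pair 2 and 0.423 in pair 3. At least 2-fold changes numbered 1506, 1212 and 646. Pair 3 thus held the fewest large changes of the Kbr pairs, in a measure where the control pairs gave 671, 417 and 580. The array that stood apart was Kbr 48 h replicate 3, with a root mean square distance of 0.297 to the mean of its group, against 0.175 to 0.242 in the other 11 arrays. The 18S ribosomal RNA control probe sets changed by 0.97, -0.03 and 0.41 in pairs 1, 2 and 3, those of 28S by 0.38, -0.05 and 0.41, and the GAPDH 3′ to 5′ ratio by 0.02, 0.00 and -0.04. The part of RNA quality in the smaller changes of pair 3 was not tested.

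Without Kbr 48 h replicate 3, 3503 probe sets rose (18.1%) and 3584 fell (18.5%), 7087 in all. That array was left out because it stood apart in these same data, so the larger count is a description. Of the 5673 probe sets called on all arrays 5193 were also called without it, and 1894 were called only without it. Pair 3 also served as a comparison that took no part in choosing probe sets. Numbers 1 and 2 alone, with all of number 3 left out, gave 2711 probe sets that rose, with a median change of 0.64, and in pair 3 these changed by a median of 0.28. Of them 82.4% were higher at 48 h in pair 3, where 46.8% of all probe sets were. The 2986 that fell in numbers 1 and 2 had a median change of -0.66 there and -0.41 in pair 3. Of these 91.8% were lower in pair 3, against 53.3% of all probe sets. Pair 3 therefore moved in the direction of the other pairs for most probe sets, with smaller changes for the rises than for the falls.

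**Figure D1:**
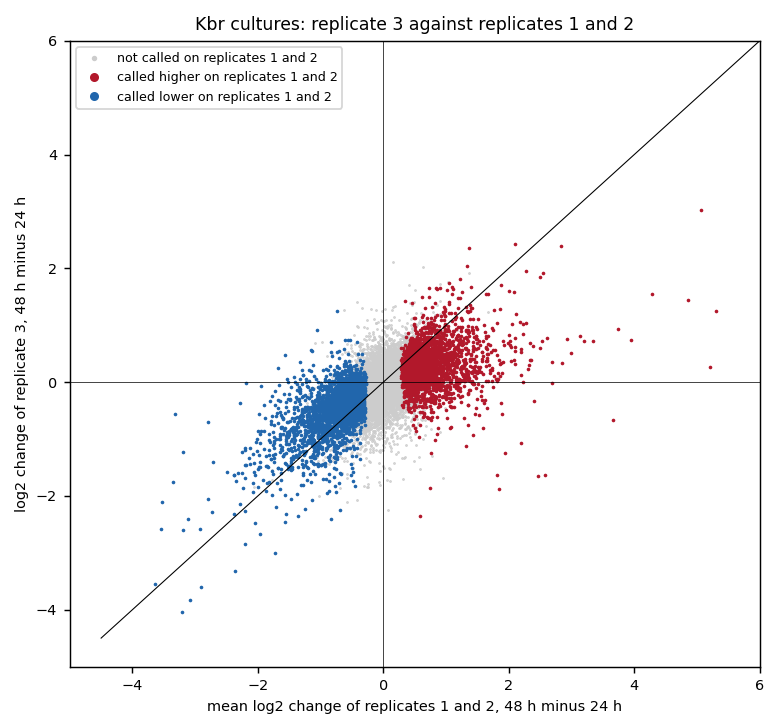
Log2 change of pair 3 (vertical axis) against the mean log2 change of pairs 1 and 2 (horizontal axis) in Kbr cultures, 1 point per tested probe set, with the 2711 called higher and the 2986 called lower on numbers 1 and 2 in colour and a line where both axes are equal. Most coloured points keep their sign in pair 3, where their medians are 0.28 and -0.41, against 0.64 and -0.66 on numbers 1 and 2.

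The 15 largest rises whose 48 h arrays all lay above the 24 h arrays were led by genes of the stress of the endoplasmic reticulum and of amino acid shortage, 9 of the 15 being members of the ATF4 and CHOP list or of the unfolded protein list described below. These lists had 30 and 23 tested members, out of 10581 genes tested. They were drawn up with earlier results of these data known, so the count is only a description. Over all tested probe sets, 2863 (14.8%) were higher on all 48 h arrays than on all 24 h arrays and 3517 (18.2%) were lower. The median change of the 15 rises was 3.40 in pair 1, 2.89 in pair 2 and 1.54 in pair 3. These are the largest of many, so their sizes describe the extremes and support nothing further.

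INHBE, which encodes the βE subunit of activin, read 3.96, 5.72 and 3.35 in log2 on the 24 h arrays of replicates 1, 2 and 3 and 9.96, 9.86 and 6.37 on the 48 h arrays. Its 48 h arrays all lay above its 24 h arrays, and replicate 3 was the lowest at both times. The rise was 4.38 ± 0.67 on the log2 scale (SE from limma, n = 3 pairs, adjusted p = 0.00251). The controls also rose, by 2.27, and the Kbr change did not differ from the control change by the interaction test (adjusted p = 0.148). At 48 h the Kbr and control levels of INHBE differed by 0.01, whereas at 24 h the Kbr level had been 2.11 below that of the controls.

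ATF3, a stress-induced transcription factor of the same family as ATF4, read 6.52, 6.53 and 6.68 at 24 h and 12.17, 11.48 and 7.94 at 48 h. The 24 h arrays were nearly equal, and at 48 h replicate 3 lay far below the other two. The rise was 3.95 ± 0.92 (adjusted p = 0.0134 in limma) and 5.35 without Kbr 48 h replicate 3. This call was lost without Kbr 24 h replicate 1, Kbr 48 h replicate 1 or Kbr 48 h replicate 2, with adjusted p of 0.0606, 0.0613 and 0.0605. DDIT3, which encodes CHOP, showed the same picture with 8.89, 8.94 and 8.81 at 24 h and 12.91, 12.83 and 9.55 at 48 h. Its rise of 2.88 ± 0.68 (adjusted p = 0.0144) became 3.87 without that array. In the controls DDIT3 changed by 1.56 with no call, largely in replicate 1, which read 7.80 at 24 h and 10.74 at 48 h. The DDIT3 call was lost without Kbr 24 h replicate 1 or 2 or Kbr 48 h replicate 1 or 2, with adjusted p of 0.0569 to 0.0650. The interaction was not called for ATF3 (adjusted p = 0.185) or DDIT3 (adjusted p = 0.368) on all arrays. It was called for both without Kbr 48 h replicate 3, at 0.00521 and 0.0239.

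SLC7A11, the cystine and glutamate exchanger that supplies cysteine for glutathione, read 2.54, 3.17 and 4.09 at 24 h and 7.60, 7.83 and 5.54 at 48 h by the probe set with the largest change. The control arrays stayed between 1.68 and 2.53. The rise was 3.72 ± 0.56 (adjusted p = 0.00250), and it exceeded the control change by 3.35 (adjusted p = 0.0247). That interaction kept its call without replicate 3 of Kbr 24 h, Kbr 48 h or control 48 h and lost it without any of the other 9 arrays (adjusted p 0.0505 to 0.0675). The 24 h levels are close to the lower end of the scale, where the size of a fold is uncertain. A pair of other SLC7A11 probe sets also rose, by 1.92 to 2.00. The SLC7A11 probe set with the highest mean over the arrays was the one that rose by 1.92. On it the controls changed by 1.21 with no call (adjusted p = 0.0987). Its interaction was 0.71 and not called (adjusted p = 0.466). Gene-wide averaging of the probe sets left the interaction at 1.55 with no call (adjusted p = 0.123). CTH, the cystathionine gamma-lyase that makes cysteine from cystathionine, read 5.16, 5.48 and 4.60 and then 9.79, 9.40 and 6.14. It rose by 3.37 ± 0.61 (adjusted p = 0.00515), and its interaction was not called (adjusted p = 0.0902).

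A group of endoplasmic reticulum genes rose with them. DNAJB9, a co-chaperone of HSPA5, read 6.37, 6.19 and 6.18 at 24 h and 10.00, 10.05 and 7.11 at 48 h, a rise of 2.80 ± 0.56 (adjusted p = 0.00728). SDF2L1, a component of a chaperone complex of the same organelle, read 7.13, 7.40 and 7.39 and then 10.86, 10.37 and 8.12. Its rise of 2.47 ± 0.57 (adjusted p = 0.0128) became 3.40 without replicate 3 at 48 h. SDF2L1 changed by -0.71 in the controls with no call, and the interaction was called at 3.19 (adjusted p = 0.0296). It kept its call without Kbr 48 h replicate 3, control 24 h replicate 1 or control 48 h replicate 3, and lost it without any of the other 9 arrays (adjusted p 0.0514 to 0.0809). HERPUD1, which takes part in the disposal of misfolded proteins, read 10.17, 10.33 and 9.99 and then 13.26, 13.22 and 10.50, and rose by 2.17 ± 0.51 (adjusted p = 0.0139). Its replicate 3 at 48 h stood just above the highest 24 h array. PPP1R15A, the phosphatase subunit that reverses eIF2α phosphorylation, went from 6.35, 5.69 and 6.67 to 9.32, 8.41 and 7.00, a rise of 2.01 (adjusted p = 0.0141). The calls of SDF2L1, HERPUD1 and PPP1R15A were each lost without Kbr 24 h replicate 1, Kbr 24 h replicate 2 or Kbr 48 h replicate 2, and those of HERPUD1 and PPP1R15A also without Kbr 48 h replicate 1 (adjusted p 0.0524 to 0.0642 over these fits).

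GDF15, a secreted stress cytokine, read 11.07, 11.19 and 10.92 at 24 h and 13.72, 13.54 and 12.77 at 48 h. All 3 pairs moved, and the rise was 2.28 ± 0.23 (adjusted p = 0.000592). The controls rose by 0.84, and the Kbr rise was larger by 1.44 (adjusted p = 0.0222). FBXO32, the ubiquitin ligase subunit atrogin-1, went from 5.57, 4.16 and 4.12 to 7.00, 6.93 and 6.54, a rise of 2.21 (adjusted p = 0.00239), with control arrays between 2.44 and 3.19. CPEB4, an RNA-binding regulator of poly(A) tails and translation, went from 3.42, 3.98 and 3.91 to 6.07, 6.41 and 5.83, a rise of 2.33, and 2 of its other probe sets rose by 1.21 to 1.82. In FBXO32 and CPEB4, replicate 3 at 48 h lay near the other 2 arrays.

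For 4 of the 15 rises some other probe set of the gene was not called. In FBXO32 the 2 others changed by 0.44 to 1.07, and 1 of them rose. GOSR2, a SNARE protein of the Golgi, rose by 2.69 on the probe set with the largest change, with arrays at 3.19, 4.33 and 3.00 and then 6.59, 6.60 and 5.39, while its 7 other probe sets changed by 0.32 to 1.14 and 3 of them rose. CDC23, a subunit of the anaphase-promoting complex, rose by 2.17 on 1 probe set and changed by 0.23 with no call on its other. TRAPPC10, a subunit of a vesicle tethering complex, rose by 1.91 on 1 probe set and changed by 0.11 with no call on its other. These values stand for the sequence a probe set covers and not for the whole gene.

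**Figure D2:**
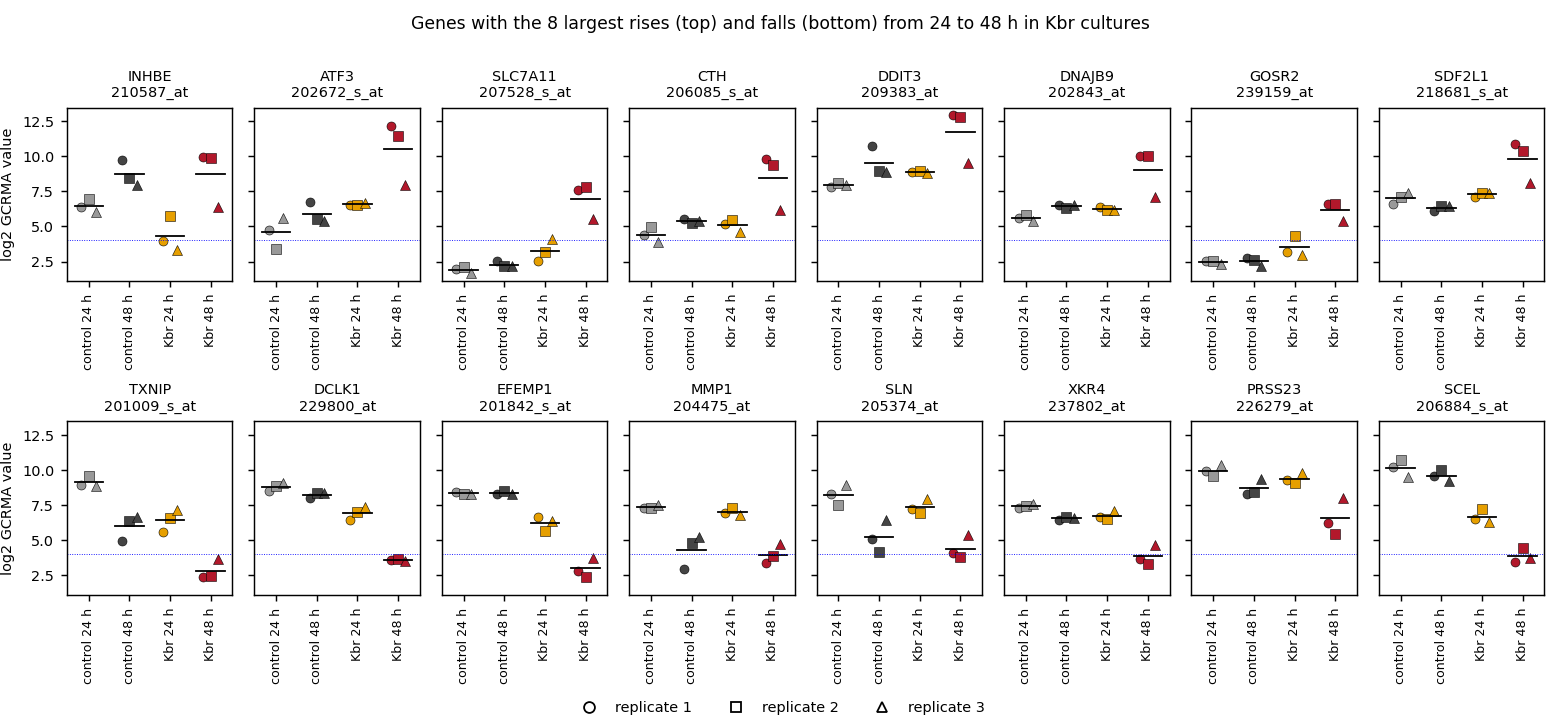
Log2 GCRMA value on each of the 12 arrays for the 8 largest rises (top) and the 8 largest falls (bottom), 1 symbol per replicate number, with a bar at each group mean and a dotted line at log2 4. In ATF3 and DDIT3 replicate 3 at 48 h, at 7.94 and 9.55, lies far below replicates 1 and 2, whereas the 3 arrays of DCLK1 at 48 h lie together.

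The list of endoplasmic reticulum chaperones and unfolded protein genes had 23 tested members out of 24. Of these 11 rose, where 12.7% of all probe sets rose, none fell, and their median change was 0.76. Without the replicate block 8 were called, where 5.96% of all rose. HSPA5, the central chaperone of the organelle, read 13.86, 13.71 and 13.71 at 24 h and 15.40, 15.09 and 13.99 at 48 h, where the controls held between 12.80 and 13.40. It rose by 1.07 ± 0.29 (adjusted p = 0.0246) and by 1.53 without Kbr 48 h replicate 3. XBP1, the transcription factor of the IRE1 branch, went from 8.58, 8.50 and 8.29 to 10.24, 10.28 and 8.83, a rise of 1.32 ± 0.27 (adjusted p = 0.00835). DNAJC3, an inhibitor of PERK and a chaperone, rose by 1.48, and the co-chaperone DNAJB11 by 0.99. The DNAJC3 call was lost without Kbr 24 h replicate 1 or 2 or Kbr 48 h replicate 1 or 2 (adjusted p 0.0525 to 0.0839). It was also lost with the Kbr arrays alone (adjusted p = 0.0832). HSP90B1, also called GRP94, rose by 0.56 (adjusted p = 0.0405), a call lost without the block (adjusted p = 0.0582). The calreticulin gene CALR changed by 0.01, and HYOU1, CRELD2, EDEM1 and ERN1, the gene of IRE1 itself, changed by 0.76, 0.75, 0.72 and 1.22, none of them called.

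The list depended on replicate 3 for its count. The median member changed by 1.37 in pair 1, 0.98 in pair 2 and 0.03 in pair 3. Without Kbr 48 h replicate 3, 18 of the 23 rose, where 18.1% of all did, and the median was 1.27. In the controls no member was called, and the median was -0.11. The change in Kbr cultures was larger than the control change in 2 members, DNAJB11 and SDF2L1, on all arrays, where 7.47% of all probe sets gave a larger and 9.62% a smaller change. Without Kbr 48 h replicate 3 it was larger in 16, where 15.2% of all gave a larger and 13.7% a smaller change.

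The ATF4 and CHOP list had 30 tested members out of 33, of which 15 rose, where 12.7% of all probe sets rose, and none fell, with a median change of 0.79. Without the block 11 were called, where 5.96% of all rose. Besides the genes described above, SLC3A2, the partner chain of SLC7A11, went from 10.32, 9.91 and 9.99 to 12.14, 11.47 and 10.65, a rise of 1.35 (adjusted p = 0.0107). TRIB3, a pseudokinase that restrains ATF4 and AKT signalling, went from 11.40, 11.42 and 11.40 to 13.21, 12.91 and 11.78, a rise of 1.23 (adjusted p = 0.0161). CEBPB, a partner of CHOP, rose by 1.13, and MTHFD2, a mitochondrial folate enzyme, by 0.89. ATF4 itself rose by 0.44 ± 0.12 (adjusted p = 0.0255), and by 0.45 in the controls (adjusted p = 0.037), with an interaction of -0.00 (adjusted p = 0.987). CHAC1, which degrades glutathione, went from 3.48, 3.41 and 3.24 to 6.50, 5.76 and 3.60. Its rise of 1.91 (adjusted p = 0.0475) was lost without the block (adjusted p = 0.128), and control replicate 1 alone went from 3.73 to 6.66.

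In ASNS, the asparagine synthetase gene and a classic ATF4 target, the pairs went opposite ways. Its arrays read 9.00, 8.89 and 9.07 at 24 h and 10.75, 10.33 and 8.26 at 48 h, so that replicate 3 fell below all 24 h arrays. The change of 0.79 was not called (adjusted p = 0.24), and without that array it was 1.53 (adjusted p = 0.00234). SLC1A4, a neutral amino acid transporter, likewise read 6.74, 6.21 and 6.76 and then 7.60, 6.54 and 4.41. SESN2, a stress-induced regulator of the kinase mTORC1, changed by 2.21 with no call on 1 probe set (adjusted p = 0.0658), by 3.54 without replicate 3 at 48 h (adjusted p = 0.000108), and rose by 1.78 on another (0.0687 without the block). The median member of the list changed by 1.56, 1.18 and 0.00 in pairs 1, 2 and 3. Leaving out Kbr 48 h replicate 3, 26 of the 30 rose, where 18.1% of all did. In the controls 3 rose and the median was 0.30, where 7.12% of all probe sets rose and 9.87% fell. The interaction was called higher in 1 member, GDF15, and lower in 1, CBS, on all arrays, shares below the 7.47% and 9.62% over all probe sets, and in 18 and 1 without Kbr 48 h replicate 3. Of 12 tested cytosolic tRNA synthetases, also ATF4 targets in part, 2 rose, GARS1 by 0.87 and NARS1 by 0.33, and VARS1 fell by 0.73. None of these 3 was called without the block. Without Kbr 48 h replicate 3, 9 synthetases rose and 1 fell. Over all probe sets 12.7% rose and 16.6% fell on all arrays, and 18.1% and 18.5% without that array.

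**Figure D3:**
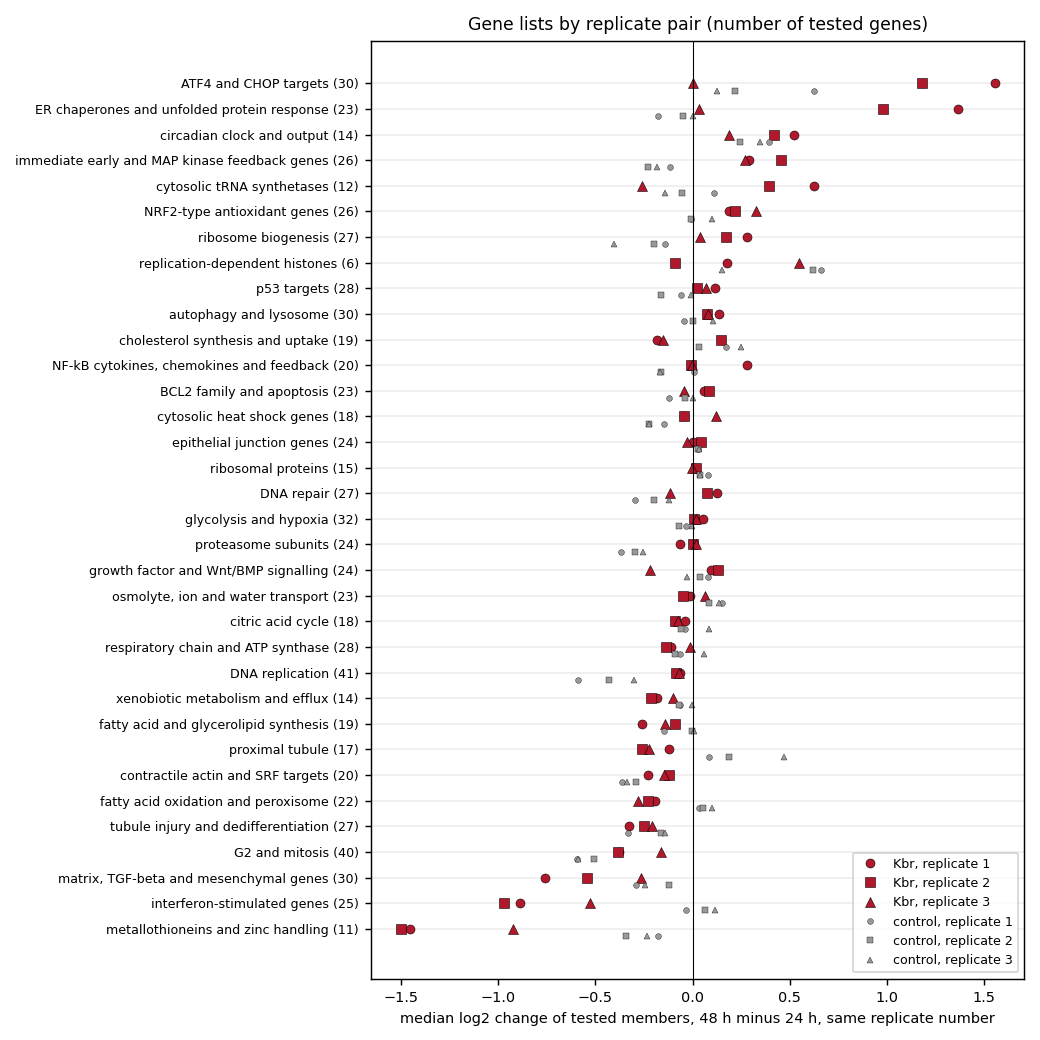
Median log2 change from 24 h to 48 h of the tested members of each gene list, in Kbr pairs 1, 2 and 3 (large symbols) and in the control pairs (small grey symbols). The ATF4 and CHOP list (1.56, 1.18 and 0.00) and the unfolded protein list (1.37, 0.98 and 0.03) moved in pairs 1 and 2, whereas the interferon list (-0.89, -0.97 and -0.53) and the metallothionein list (-1.46, -1.50 and -0.92) moved in all 3 pairs.

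The stretch of 250 bases before the start of the leading chaperone and ATF3 genes is shown because these members moved together and their factors read known letters. Sequences are those of RefSeq on GRCh38.p14, read 5′ to 3′ on the gene's strand, with the matched letters in capitals. For HSPA5 (chr9:125241344-125241593, minus strand) and XBP1 (chr22:28800570-28800819, minus strand) the capitals mark the endoplasmic reticulum stress element, CCAAT and CCACG set 9 bases apart, on either strand. For ATF3 (chr1:212565157-212565406, plus strand) they mark the amino acid response element TGATGNAA on either strand.
HSPA5: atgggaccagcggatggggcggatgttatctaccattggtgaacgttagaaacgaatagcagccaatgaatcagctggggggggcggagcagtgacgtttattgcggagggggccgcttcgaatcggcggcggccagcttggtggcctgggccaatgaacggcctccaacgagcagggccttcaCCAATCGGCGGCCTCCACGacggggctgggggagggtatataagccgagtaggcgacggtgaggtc
XBP1: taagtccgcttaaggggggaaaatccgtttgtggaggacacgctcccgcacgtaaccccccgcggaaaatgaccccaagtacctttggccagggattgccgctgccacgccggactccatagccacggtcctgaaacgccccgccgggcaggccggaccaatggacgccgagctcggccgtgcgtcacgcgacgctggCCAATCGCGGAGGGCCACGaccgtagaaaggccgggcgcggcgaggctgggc
ATF3: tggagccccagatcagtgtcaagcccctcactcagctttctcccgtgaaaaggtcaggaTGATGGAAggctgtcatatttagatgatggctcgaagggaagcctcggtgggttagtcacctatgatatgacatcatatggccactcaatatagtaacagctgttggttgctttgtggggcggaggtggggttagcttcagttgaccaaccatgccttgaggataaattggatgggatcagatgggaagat
The stress element began 66 bases before the start in HSPA5 and 52 bases before it in XBP1. It was present in 6 of the 21 tested unfolded protein genes in the promoter table, 3 of them among the 10 that rose, and in 0.0806% of all 27305 promoters of that length. The third that rose was HSP90B1, with 2 matches. The amino acid response element stood 191 bases before the start of ATF3 and was found in 3 of 26 tested ATF4 and CHOP genes, 2 of them among the 13 that rose, ATF3 and CHAC1, and in 3.19% of all promoters. The antioxidant element TGACNNNGC was found in 4 of 20 tested NRF2-type genes, 1 of them among the 8 that rose, and in 11.03% of all promoters. The heat shock element, known by that name and searched on both strands, was found in 2 of 16 tested heat shock genes, none of them among the 4 that rose, and in 0.440% of all. A match says that the letters are there and is not a measured binding site.

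The 15 largest falls moved more evenly across the pairs than the rises. Their median change was -3.03 in pair 1, -3.17 in pair 2 and -2.42 in pair 3. For 7 of the 15 the control cultures fell as well. TXNIP, the thioredoxin-interacting protein whose gene responds to glucose, read 5.59, 6.58 and 7.18 at 24 h and 2.40, 2.48 and 3.63 at 48 h, a fall of 3.62 ± 0.35 on the log2 scale (adjusted p = 0.000487). The controls went from 8.95, 9.59 and 8.86 to 4.96, 6.35 and 6.69, and the difference between the changes, -0.48, was not called (adjusted p = 0.532). MMP1, interstitial collagenase, went from 6.97, 7.33 and 6.83 to 3.37, 3.85 and 4.71, and its changes were -3.06 in Kbr cultures and -3.03 in controls. SLN, sarcolipin, a small inhibitor of the calcium pump, went from 7.26, 6.95 and 7.96 to 4.06, 3.78 and 5.36, with changes of -2.99 and -3.04. For these 3 genes the fall in exposed cultures was also seen with vehicle.

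Other large falls went beyond the control change by the interaction test. DCLK1, a kinase with a microtubule-binding doublecortin part, read 6.47, 6.99 and 7.37 at 24 h and 3.62, 3.67 and 3.54 at 48 h. The controls changed by -0.55, and the difference between the changes was -2.78 ± 0.22 (adjusted p = 0.00151). EFEMP1, the matrix glycoprotein fibulin-3, went from 6.64, 5.69 and 6.35 to 2.84, 2.39 and 3.77, while the controls stayed between 8.26 and 8.54. Its other probe set changed by -0.10. MUC1, a membrane mucin of epithelia, went from 6.81, 6.76 and 6.54 to 4.20, 3.79 and 4.49, a change of -2.54, whereas the controls rose by 0.77. The interaction was -3.31 (adjusted p = 0.00154), and the other MUC1 probe sets changed by -1.05 and -0.19. TM7SF2, a sterol reductase of cholesterol synthesis, went from 6.22, 6.10 and 6.65 to 4.20, 3.71 and 3.81. CYP4V2, a fatty acid hydroxylase, went from 6.57, 6.07 and 6.18 to 4.18, 3.70 and 3.87, with an interaction of -2.72 (adjusted p = 0.000296). In DCLK1, MUC1, TM7SF2 and CYP4V2 the 3 arrays at 48 h lay close together, replicate 3 included.

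SCEL, sciellin, an envelope protein of stratified epithelia, went from 6.51, 7.25 and 6.29 to 3.48, 4.44 and 3.71. Controls lay between 9.23 and 10.70, so the gene was already low in Kbr cultures at 24 h. COPZ2, a coatomer subunit, fell by 2.28 on the log2 scale with an interaction of -2.42 (adjusted p = 0.016). The serine protease gene PRSS23 went from 9.32, 9.07 and 9.80 to 6.25, 5.44 and 8.04. Its interaction of -1.58 (adjusted p = 0.0486) was lost without the block (adjusted p = 0.259). SKP2, which directs the destruction of the cell cycle inhibitor p27, went from 6.22, 6.47 and 6.67 to 2.63, 3.41 and 6.11, so that replicate 3 barely moved. The SKP2 interaction of -1.93 was not called (adjusted p = 0.0956). XKR4 and EEIG2 fell by 2.88 and 2.69 on the log2 scale, with called interactions of -2.01 and -2.08.

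The interferon-stimulated genes fell together. Of 25 tested members out of 35, 18 fell, where 16.6% of all probe sets fell, and none rose, with a median change of -0.78. Without the block 10 were called lower, where 7.92% of all fell. The median was -0.89, -0.97 and -0.53 in pairs 1, 2 and 3, so pair 3 took part. Without Kbr 48 h replicate 3, 19 fell, where 18.5% of all did. In the controls 3 rose and 2 fell, with a median of 0.06, where 7.12% and 9.87% of all did. The Kbr change was below the control change in 15 members with the block, and in 3 without it. The shares over all probe sets were 7.47% higher and 9.62% lower with the block, and 1.73% higher and 2.94% lower without it.

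IFIT1, which binds viral RNA that lacks a host cap, read 9.99, 10.83 and 10.20 at 24 h and 8.34, 9.24 and 9.59 at 48 h. The controls read 8.37, 9.16 and 8.56 and then 7.91, 9.07 and 8.41. IFIT1 thus stood above the controls at 24 h, by 1.64, and its fall of 1.29 ± 0.21 on the log2 scale (adjusted p = 0.00303) took it towards their level. The interaction was -1.05 (adjusted p = 0.0407, and 0.275 without the block). IFIT3, a partner of IFIT1, went from 10.57, 10.66 and 10.63 to 9.25, 9.32 and 9.77, a fall of 1.17 ± 0.12 (adjusted p = 0.000516). IFIT2 fell by 1.07, the RNA sensor gene IFIH1 by 1.16 and the ubiquitin-like modifier ISG15 by 0.91, the last with no call without the block (adjusted p = 0.0849). OASL and IFIT2 also stood above the controls at 24 h, by 1.38 and 1.39.

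Other members started below the controls and went lower. IFI35 went from 6.19, 6.86 and 6.65 to 3.58, 3.08 and 5.42, with controls between 7.18 and 7.95. Its interaction of -2.23 (adjusted p = 0.0358) was lost without the block (adjusted p = 0.0796). PSMB9, an immunoproteasome subunit, went from 7.72, 7.93 and 7.48 to 6.18, 6.60 and 6.60, a fall of 1.25 ± 0.12 (adjusted p = 0.000516), and its change lay below that of the controls (interaction adjusted p = 0.00938). IFI44L went from 7.33, 7.68 and 5.19 to 5.33, 6.12 and 4.60, and the replicate 3 arrays of both times were its lowest. Its fall of 1.38 (adjusted p = 0.00509) was not called without the block (adjusted p = 0.255). IFITM1, which blocks viral entry, lay 1.53 below the controls at 24 h. GBP2, BST2 and PSMB8 changed by -0.54, -0.30 and -0.25 with no call. The list therefore held members that were above and members that were below the controls at 24 h, with a median of -0.11 for Kbr against control at 24 h and -0.58 at 48 h.

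The promoter of IFIT1 (chr10:89392373-89392622, plus strand, RefSeq, GRCh38.p14) carries the interferon response element, GAAA repeated after 2 bases, on either strand and in capitals below.
IFIT1: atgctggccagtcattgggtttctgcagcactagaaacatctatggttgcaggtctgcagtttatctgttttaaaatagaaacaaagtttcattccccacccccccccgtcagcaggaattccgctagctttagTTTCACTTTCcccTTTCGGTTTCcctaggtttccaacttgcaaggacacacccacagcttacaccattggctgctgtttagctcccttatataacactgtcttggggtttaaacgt
The matches began 116 and 103 bases before the start and do not overlap. At least 1 match was present in 14 of 20 tested interferon genes in the table, 12 of them among the 15 that fell, against 3.07% of all promoters. This motif was added after the expression values had been seen.

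Metallothioneins fell in the exposed cultures. The list of metallothioneins and zinc handling had 11 tested members out of 14, with a median change of -1.32. Of these 8 fell and 2 rose, where 16.6% and 12.7% of all probe sets did. Without the block 7 were called, all lower, where 7.92% of all fell. MT1M went from 9.36, 8.87 and 9.30 at 24 h to 7.00, 6.47 and 7.67 at 48 h, a fall of 2.13 ± 0.15 on the log2 scale (adjusted p = 0.000184). MT1X went from 13.27, 13.06 and 13.38 to 11.46, 11.54 and 12.38, and MT2A from 14.25, 14.13 and 14.39 to 12.79, 12.77 and 13.58. Replicate 3 was the highest at 48 h in all 3 genes, and no 48 h array reached the level of a 24 h array. MT1F, MT1E, MT1G and MT1H fell by 1.60, 1.38, 1.37 and 1.32. The copies of these genes are nearly alike and several probe sets can read more than 1 of them, so the members are not separate observations.

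The controls changed little in these genes, with 1 called lower and a median of -0.26. The Kbr change was below the control change in 7 members, and in 3 without the block, where 9.62% and 2.94% of all probe sets were. The differences were -1.59 for MT1M (adjusted p = 0.00414), -1.13 for MT1X (adjusted p = 0.0184) and -0.97 for MT2A (adjusted p = 0.0194). These 3 interactions were lost without the block, at 0.0508, 0.0535 and 0.0626. MTF1, the metal-sensing transcription factor, changed by 0.14 with no call. SLC30A1, the zinc exporter that is also an MTF1 target, went the other way and rose by 0.34 (adjusted p = 0.0216, and 0.0621 without the block). The zinc importer SLC39A14 rose by 0.82 (adjusted p = 0.042, and 0.052 without the block), and SLC39A10 fell by 0.72 (0.0646 without the block). SLC30A1 rose about as much as in the controls, where it changed by 0.27.

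The promoter of MT1X (chr16:56682220-56682469, plus strand, RefSeq, GRCh38.p14) is printed with its metal response elements, TGCGCNC or TGCACNC on either strand, in capitals.
MT1X: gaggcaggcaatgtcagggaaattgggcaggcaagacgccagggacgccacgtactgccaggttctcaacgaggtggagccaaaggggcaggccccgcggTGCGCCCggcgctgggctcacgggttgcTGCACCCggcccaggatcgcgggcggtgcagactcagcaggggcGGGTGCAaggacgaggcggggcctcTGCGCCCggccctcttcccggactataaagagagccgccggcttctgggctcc
The 4 matches began 150, 122, 78 and 53 bases before the start. Either form was present in 4 of 6 tested members in the promoter table, 3 of them among the 4 that fell, MT1H, MT1X and MT2A, and in 24.7% of all promoters. This motif, too, was added after the values had been seen.

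**Figure D4:**
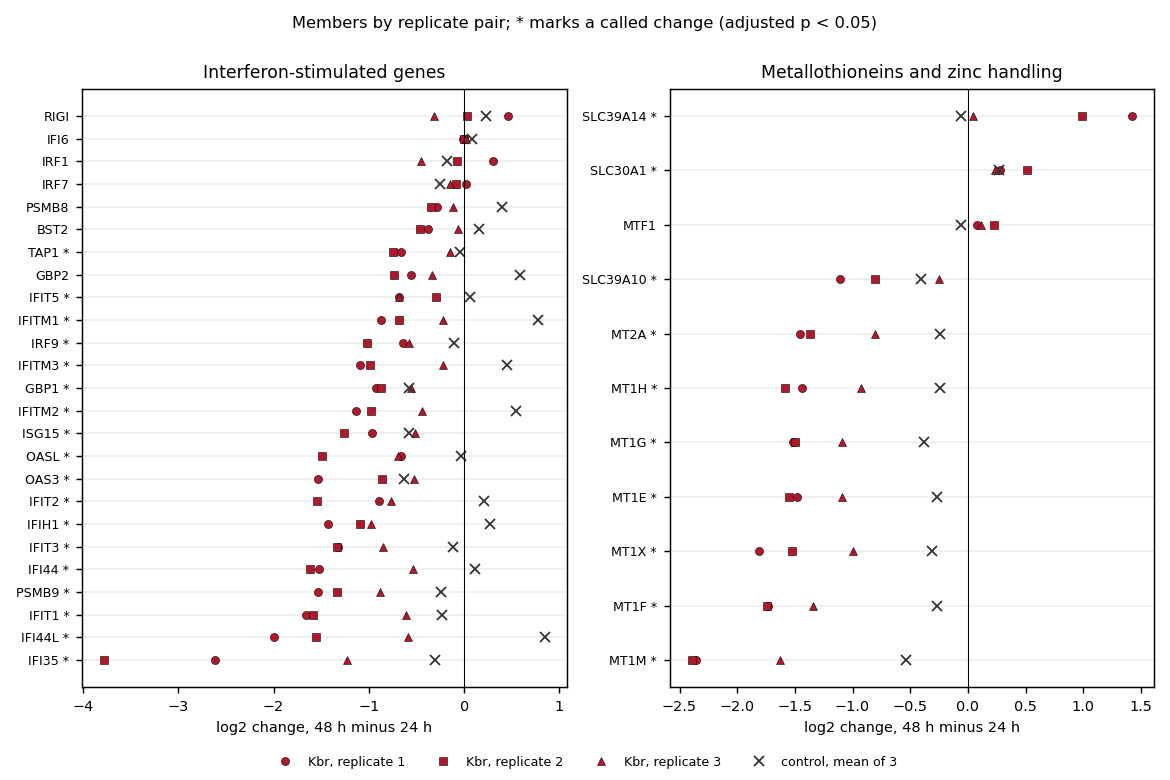
Log2 change from 24 h to 48 h of the tested interferon-stimulated genes (left) and metallothionein or zinc genes (right), with 1 symbol per Kbr replicate pair and a cross for the mean control change. Of all interferon genes tested 18 of 25 fell, and the mean Kbr changes of the metallothioneins lie between -2.13 and -1.21, with SLC30A1 and SLC39A14 above 0.

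The time change of the exposed cultures differed from that of the controls in 3306 probe sets, 1445 where the Kbr change was the higher and 1861 where it was the lower. Of the 5673 probe sets called in Kbr cultures, 2167 also differed from the control change. The remaining ones are not shown to differ. Both time changes were called with the same sign in 979 probe sets and with opposite signs in 293. In the controls 1378 probe sets rose and 1909 fell. The number of differing probe sets moved with the fit, to 904 without the block and to 5585 without Kbr 48 h replicate 3. Among the 15 leading rises the difference was called in 8 on all arrays and in 15 without Kbr 48 h replicate 3, and among the 15 leading falls in 11 and 12. Over all probe sets 7.47% gave a higher and 9.62% a lower Kbr change, or 15.2% and 13.7% without that array. The leading genes were picked by the size of the same Kbr change, so high shares are built in. Pair 3 moved least in 12 of the rises and 11 of the falls.

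The genes with the largest differences of this kind include some whose control cultures moved the opposite way. CFB, complement factor B, went from 5.22, 5.23 and 4.86 to 3.42, 3.58 and 3.58 in Kbr cultures, a change of -1.57, while the controls rose by 1.44. GJA1, the gap junction protein connexin 43, went from 9.36, 9.37 and 10.29 to 7.28, 7.44 and 8.76, a change of -1.84, while the controls rose by 0.85. SLC44A5, a choline transporter-like gene, changed by -1.05 against 1.70, and its Kbr change was not called without the block (adjusted p = 0.0542). The differences were -3.00, -2.69 and -2.75. The other probe set of CFB changed by 0.02 and the 3 others of SLC44A5 by -0.47 to -0.02, none of them called. On the other side PCGF3, a Polycomb group protein, rose by 0.94 while its controls fell by 1.30, but its 3 other probe sets changed by -0.32 to 0.25. DCAF16, a substrate receptor of a ubiquitin ligase, rose by 1.87, with other probe sets at -0.22 and 0.03.

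**Figure D5:**
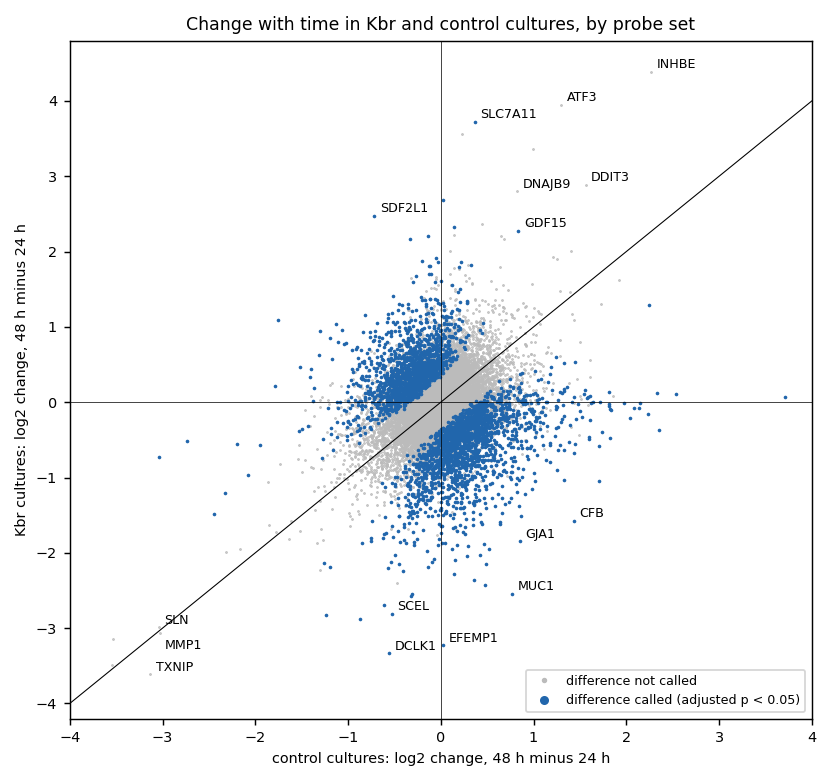
Log2 change from 24 h to 48 h in Kbr cultures (vertical axis) against that in control cultures (horizontal axis), 1 point per tested probe set, with the 3306 whose changes differed in blue and a line where both are equal. TXNIP, MMP1 and SLN fell in both, while MUC1, CFB and GJA1 fell in Kbr cultures and rose in controls.

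Genes of cell division fell in exposed cultures, as they did in controls. Of 40 tested genes of G2 and mitosis 23 fell and none rose, with a median of -0.31, where 16.6% of all probe sets fell. Without the block 10 were called, where 7.92% of all fell. In the controls 34 fell, with a median of -0.59, where 9.87% of all fell. KIF20A, a kinesin of cytokinesis, went from 11.10, 11.16 and 10.94 to 9.56, 9.66 and 10.43. CCNA2, cyclin A2, changed by -0.69 in Kbr cultures and by -0.90 in controls. AURKA, a mitotic kinase, fell by 0.59, and CENPE, a kinetochore motor, by 0.64, and in controls these 2 fell by 0.71 and 0.75. The control change of KIF20A was -0.49 with no call. The Kbr change was above the control change in 8 of these genes with the block and in 1 without it, where 7.47% and 1.73% of all were. Of 41 DNA replication genes 12 fell and 1 rose, where 16.6% and 12.7% of all did, with a median of -0.11. In controls 28 fell, where 9.87% of all did, with a median of -0.47. The replication gene that rose in Kbr cultures was CDC6, which loads the replicative helicase. It went from 10.05, 10.29 and 10.26 to 11.55, 11.44 and 10.48, while the controls went from 9.28, 9.37 and 9.63 to 8.01, 8.34 and 8.73. The difference between its changes was 2.02 (adjusted p = 0.0139). The other tested CDC6 probe set changed by 0.78 in Kbr cultures with no call. The CDC6 rise lost its call without any 1 of the other 5 Kbr arrays, all but Kbr 48 h replicate 3 (adjusted p 0.0787 to 0.136), and with the Kbr arrays alone (0.0791). LIG1, DNA ligase 1, fell by 0.87 and RRM2, a ribonucleotide reductase subunit, by 0.54, against falls of 0.47 and 0.44 in controls. The Kbr change was above the control change in 11 replication genes, and in 6 without the block, where 7.47% and 1.73% of all were. Without the block 7 replication genes fell and 1 rose in Kbr cultures, where 7.92% and 5.96% of all did.

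Of 30 tested matrix, TGF-beta and mesenchymal genes 20 fell and 2 rose, where 16.6% and 12.7% of all probe sets did. Their median was -0.61, and 10 were called lower without the block, where 7.92% of all were. In controls 10 fell, with a median of -0.21, where 9.87% of all fell. Besides MMP1, TAGLN, an actin-binding protein of contractile cells, fell by 1.99 and TGFBI, a matrix protein induced by TGF-beta, by 1.26. Both fell in the controls too, TGFBI by 1.14. The TAGLN call in Kbr cultures was lost without Kbr 24 h replicate 1 (adjusted p = 0.0596) or Kbr 48 h replicate 1 (adjusted p = 0.0590). It was also lost with replicate number 3 left out of all groups (adjusted p = 0.0725). COL6A1 fell by 1.01, and LOXL2, a collagen cross-linking enzyme, by 0.93. The 2 that rose were BAMBI, a decoy receptor of the TGF-beta family, by 0.88 and ZEB1, a repressor of epithelial genes, by 0.57, neither of them called without the block. The fibroblast markers moved with this list. All 3 that were tested fell, LUM by 1.61, COL1A1 by 1.37 and DCN by 1.22, and the summed signal of the tested ones, in log2, was 11.41 to 11.83 at 24 h and 10.15 to 10.58 at 48 h. It was 12.36 to 12.87 and 12.27 to 12.34 in controls. The markers COL1A2, COL3A1, PDGFRA, PDGFRB and POSTN did not exceed log2 4 on a Kbr array, and the part of fibroblast-like cells in the result was not tested.

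Only some genes of the tubule fell. SLC17A3, an organic anion transporter, went from 5.70, 5.79 and 6.73 to 3.58, 3.80 and 4.26, a fall of 2.19 with an interaction of -2.05 (adjusted p = 0.00813). CDH6, a cadherin of the early and injured proximal tubule, went from 11.94, 11.88 and 11.30 to 9.94, 10.34 and 9.74, a fall of 1.70 with an interaction of -1.51 (adjusted p = 0.00414). In the controls they changed by -0.14 and -0.19. SLC22A4, a carnitine and cation transporter, fell by 1.57, and SLC7A7 rose by 0.55 (adjusted p = 0.0532 without the block). In all, 4 of 17 tested proximal tubule genes fell and 1 rose (3 and 0 without the block), where 16.6% and 12.7% of all probe sets did, and in controls 1 fell and 5 rose. Below the control change were 8 of these Kbr changes with the block and 2 without it, where 9.62% and 2.94% of all were. Without the block 7.92% of all probe sets fell and 5.96% rose in Kbr cultures. In controls 9.87% of all fell and 7.12% rose, and these shares apply to the injury list below as well. HAVCR1, the kidney injury molecule KIM-1, went from 10.23, 10.41 and 10.81 to 9.32, 9.40 and 9.86, a fall of 0.96 (adjusted p = 0.0013), and the control change was -0.04. The injury list had 11 falls and 1 rise among 27, or 5 and 1 without the block, against 8 falls and 1 rise in controls, with medians of -0.31 and -0.26. It held SOX9 at -1.43 in Kbr cultures and -1.35 in controls, and CD44 at -0.82 (adjusted p = 0.0544 without the block). SGK1, the kinase that regulates sodium transport, went from 13.33, 13.52 and 13.49 to 11.63, 11.99 and 12.30, and its interaction was -1.51 (adjusted p = 0.00456).

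Several genes of fatty acid oxidation and the peroxisome fell. Of 22 tested members 8 did and none rose, where 16.6% of all probe sets fell and 12.7% rose, with a median of -0.26. In controls 2 rose and none fell, where 7.12% and 9.87% of all did. The difference from the control change was negative and called in 6, and in 1 without the block, where 9.62% and 2.94% of all were. The same shares apply to the other lists of this paragraph, and without the block 5.96% of all rose and 7.92% fell. ACADVL, the very long chain acyl-CoA dehydrogenase, went from 9.62, 9.36 and 9.78 to 8.42, 8.21 and 8.72, a fall of 1.14 (adjusted p = 0.000363), with an interaction of -0.94 (adjusted p = 0.00636). CPT1A, which starts the import of fatty acids, fell by 0.69, with an interaction of -0.97. Without the block these 2 interactions had adjusted p of 0.0544 and 0.0509. Of the citric acid cycle genes 5 of 18 fell, among them SUCLG2 by 0.89, IDH2 by 0.72 and the citrate synthase gene CS by 0.44, and 1 rose. In fatty acid and glycerolipid synthesis 7 of 19 fell, with SREBF1, a master regulator of that pathway, at -0.70, and 1 rose, PLIN2, a lipid droplet coat protein, by 0.64. Without the block 3 fell and 1 rose, and in controls 1 fell and 2 rose. Cholesterol genes went both ways, 4 up and 7 down of 19, or 3 and 4 without the block, and 2 each way in controls. STARD4, a sterol carrier, went from 9.84, 9.83 and 9.64 to 11.65, 11.59 and 10.20, whereas FDPS and PMVK of the mevalonate pathway fell by 0.78 and 0.67. Glycolysis and hypoxia genes, of which 32 were tested, had 7 rises and 3 falls, or 4 and 1 without the block, and 6 and 4 in controls. Their share of falls in Kbr cultures lay below the 16.6% over all probe sets. VEGFA, the vascular growth factor, went from 10.54, 10.73 and 10.43 to 12.78, 12.68 and 11.20, and ADM, adrenomedullin, rose by 1.30 with an interaction of 1.65 (adjusted p = 0.0212, and 0.0521 without the block).

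Immediate early and MAP kinase feedback genes rose in 9 of 26 tested members and fell in 1, where 12.7% and 16.6% of all probe sets did. Their median was 0.35. In controls 1 rose and 4 fell, where 7.12% and 9.87% of all did. MAFF, a small Maf factor, went from 9.74, 9.67 and 9.79 to 11.55, 11.34 and 10.70, a rise of 1.47 (adjusted p = 0.0017). DUSP5 and DUSP1, phosphatases that switch off MAP kinases, rose by 1.07 and 1.00, and IER3 by 1.07. EGR1 fell by 1.06. Over all probe sets the Kbr change was above the control change in 7.47% and below it in 9.62%. Without the block these shares were 1.73% and 2.94%. Among these genes the Kbr change was above the control change in 10 members and below it in 1, and without the block in 6 and 0. In FOSL1, a member of the AP-1 family, that difference came from the controls, which fell by 1.95 while the Kbr change of -0.56 was not called. Its interaction was lost without the block (adjusted p = 0.437).

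The genes that respond to oxidants through NRF2 showed 9 rises and 2 falls among 26 tested members, with a median of 0.22, and 3 rises and 1 fall without the block. In controls 1 rose and 6 fell. For this and the next lists, 12.7% of all probe sets rose and 16.6% fell, or 5.96% and 7.92% without the block. The shares over all were 7.12% and 9.87% in controls, and 18.1% and 18.5% without Kbr 48 h replicate 3. GCLC, the catalytic subunit of glutathione synthesis, went from 10.20, 10.10 and 9.69 to 11.65, 11.16 and 10.35, a rise of 1.06 (adjusted p = 0.0073). NQO1, a quinone reductase, rose by 0.54, and the drug pump ABCC3 fell by 0.77. HMOX1, haem oxygenase, was at 11.59, 11.15 and 11.22 and then 11.44, 11.26 and 11.96, and its change of 0.24 was not called. Of 18 cytosolic heat shock genes 4 rose, ZFAND2A by 1.34, DNAJB4 by 0.72, HSPH1 by 0.39 and HSPA4 by 0.38, and none fell, whereas 2 fell without Kbr 48 h replicate 3. In controls none rose and 3 fell. Another HSPA4 probe set fell by 0.77, and averaged over their probe sets HSPA4 and HSPH1 changed by 0.09 and 0.19 with no call. These 2 calls were also lost without Kbr 24 h replicate 3 or Kbr 48 h replicate 1, and that of HSPA4 without replicate 2 of either time (adjusted p 0.0526 to 0.0901). Of 24 proteasome subunits 1 fell and none rose, with a median of -0.00, and none was called without the block. In controls 13 fell. The difference from the control change was positive and called in 5 subunits, and in 0 without the block, where 7.47% and 1.73% of all were. In ribosome biogenesis 7 of 27 rose and none fell, 1 was called without the block and 11 without Kbr 48 h replicate 3, against 1 rise and 8 falls in controls. UTP15, a part of the small subunit processome, rose by 0.59 (adjusted p = 0.0641 without the block), with an interaction of 1.13. None of 15 tested ribosomal protein genes was called.

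Among p53 targets 7 of 28 rose and 4 fell, or 4 and 3 without the block, and 3 and 4 in controls. Over all probe sets 12.7% rose and 16.6% fell, or 5.96% and 7.92% without the block, and 7.12% and 9.87% in controls. The share of p53 targets that fell in Kbr cultures lay below the 16.6% over all. GDF15 and SESN2, which rose, are counted both here and in the ATF4 and CHOP list. GADD45A, a stress sensor that several pathways raise, went from 9.76, 9.54 and 9.90 to 11.62, 11.52 and 10.56, a rise of 1.50 (adjusted p = 0.00413), and TP53I3 fell by 1.27. Of 23 genes of the BCL2 family and apoptosis 3 rose and 3 fell, shares near the 12.7% and below the 16.6% over all probe sets. The counts were 1 and 2 without the block, and 0 and 4 in controls. PMAIP1, the NOXA gene, was up by 0.57 (adjusted p = 0.128 without the block) and the BAX gene down by 0.68. Clock genes rose in 6 of 14 members, NFIL3 by 1.57 and CRY1 by 0.77, where 12.7% of all probe sets rose. In the controls 6 rose too, where 7.12% of all did, with medians of 0.36 and 0.31. The CRY1 call was lost without any single Kbr array other than Kbr 48 h replicate 3 (adjusted p 0.0764 to 0.1235). It was also lost without control 24 h replicate 2 (0.0506) or control 48 h replicate 2 (0.0507), and with the Kbr arrays alone (0.0760). Of the autophagy and lysosome genes 6 of 30 rose, UVRAG by 0.79 among them, and 1 fell, against 2 and 0 in controls. The counts were 1 and 0 of 20 for NF-kB targets (risen and fallen), 1 and 2 of 28 for the respiratory chain, 4 and 6 of 23 for osmolyte, ion and water transport, 1 and 2 of 24 for junction genes and 1 and 8 of 20 for contractile actin genes. They were 4 and 4 of 24 for growth factor and Wnt or BMP genes, 0 and 6 of 14 for xenobiotic metabolism, 2 and 3 of 27 for DNA repair and 2 and 0 of 6 for replication-dependent histones. Without the block the counts were 0 and 0 for the respiratory chain, 0 and 4 for transport, 1 and 2 for contractile actin genes, 2 and 2 for growth factor genes, 0 and 2 for xenobiotic metabolism and 0 and 2 for DNA repair. With Kbr 48 h replicate 3 left out they were 3 and 3 for NF-kB targets, 3 and 2 for junction genes, 1 and 7 for the respiratory chain, 8 and 5 for growth factor genes and 4 and 4 for DNA repair. In controls the counts were 0 and 10 for contractile actin genes, 9 and 2 for transport, 3 and 0 for histones, 0 and 8 for DNA repair, 2 and 2 for growth factor genes, 1 and 2 for xenobiotic metabolism, 0 and 1 for the respiratory chain, 1 and 2 for NF-kB targets and 1 and 0 for junction genes. Without Kbr 48 h replicate 3, 18.1% of all probe sets rose and 18.5% fell. Several of these lists had shares near or below those over all probe sets. On all arrays, both shares lay below them for NF-kB targets, the respiratory chain, junction genes and DNA repair in Kbr cultures.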

How the data were processed

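Per the labels' protocols, RNA from a column kit was turned into biotin-tagged cRNA for the Affymetrix arrays. The deposited log2 values of 54675 probe sets were made by the authors with GCRMA, which corrects background from probe sequence, normalizes across arrays and summarises each probe set, per the submitters' processing notes. Its version and a genome build for the arrays are not given in the sources used here. No detection calls were used. Of the probe sets 41091 had 1 gene symbol in the platform annotation, 1801 several, 11721 none and 62 were controls. Low GCRMA values are compressed, so folds of genes near log2 4 or below are uncertain, and the number of arrays limits the precision.

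The 12 arrays were fitted in R 4.3.3 with lmFit and eBayes of limma 3.58.1 (4 group means and the replicate number as a block, 6 residual and 2.84 prior degrees of freedom). P-values were adjusted by Benjamini-Hochberg over 19345 probe sets, with calls at 0.05, and were computed from the log2 values the authors deposited. Errors are SEs from that fit. The labels call the cultures biological replicates, and p-values measure the spread between these cultures. The pairing comes from the replicate numbers. Deviations from the group means correlated at 0.251 to 0.609 between same-numbered arrays (18 pairs of arrays) and at -0.357 to -0.0223 between others (36). The script was tested on simulated data. The interaction is the Kbr change minus the control change, and it shares its Kbr arrays with the Kbr comparison.

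Gene lists used for each gene the tested probe set with the highest mean over the 12 arrays. Some genes belong to several lists and are counted in each. Examples are SLC7A11 in the NRF2-type list and ATF3 in the immediate early list, both also in the ATF4 and CHOP list. The members and lists were chosen with earlier results of these data known. A rule on size chose the 15 largest rises and falls without overlap between times, 8 each way without Kbr 48 h replicate 3, 8 each way in the interaction and 4 per list, 167 genes in all, of which the text describes a part, picked with their values in view. Those outside it, such as HSPA5, XBP1, CHAC1, ASNS, SLC1A4, ATF4, MT2A, IFIT3, SLC30A1 and MTF1, and the promoters printed, were chosen after their values were seen. Tables and figures were made with Python 3.11.15, pandas 2.3.3, numpy 2.4.6 and matplotlib 3.10.9.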

Additional observations from a re-analysis of the deposited data

Results flagged for a closer look

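For 16 genes the change from 24 h to 48 h differed between Kbr and control cultures by the interaction test of limma (adjusted p under 0.05) and was among the 8 largest such differences in either direction. Where the Kbr change was the higher one, the differences in log2 were 3.35 ± 0.80 (SE, n = 3 arrays per group) for SLC7A11, 3.19 ± 0.80 for SDF2L1, 2.66 ± 0.38 for GOSR2 and 2.50 ± 0.27 for CDC23. They were 2.34 ± 0.47 for FBXO32, 2.24 ± 0.28 for PCGF3, 2.19 ± 0.45 for CPEB4 and 2.08 ± 0.24 for DCAF16. In PCGF3 the control fall of 1.30 was larger than the Kbr rise of 0.94.

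Where the Kbr change was the lower one, the differences were -3.31 ± 0.27 for MUC1, -3.26 ± 0.42 for EFEMP1, -3.00 ± 0.32 for CFB and -2.90 ± 0.25 for TM7SF2. They were -2.78 ± 0.22 for DCLK1, -2.75 ± 0.27 for SLC44A5, -2.72 ± 0.14 for CYP4V2 and -2.69 ± 0.31 for GJA1. In MUC1, CFB, SLC44A5, GJA1 and CYP4V2 the controls rose while the Kbr cultures fell. All 16 interactions were also called without the replicate block and without Kbr 48 h replicate 3. Those of SLC7A11 and SDF2L1, the largest where the Kbr change was the higher, were lost when most other single arrays were left out, as given above. No explanation of these differences was tested.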

How the results depend on the processing

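Counts of calls moved with the fit. Over all alternatives, directions were followed only for the named probe sets, which were picked by size of change in these same data. Of 5673 probe sets called at 48 h against 24 h in Kbr cultures, 2496 passed an adjusted p of 0.01 and 724 a 2-fold change. The count was 3571 with 1 probe set per gene, 3279 with a gene's probe sets averaged, 10049 with array weights and 3199 with the 6 Kbr arrays alone. Without the replicate block it was 2686, and 4393 of 7087 when Kbr 48 h replicate 3 was left out. Leaving out 1 array gave 3158 (without Kbr 24 h replicate 2) to 7087 (without Kbr 48 h replicate 3). Of 3306 interactions, 691 passed 0.01, 906 a 2-fold difference, 2140 were called with 1 probe set per gene, 1857 with gene means, 7191 with array weights, 1834 with no expression filter and 904 without the replicate block. Single arrays left out gave 1523 (without control 24 h replicate 3) to 5585 (without Kbr 48 h replicate 3). Of 3287 control changes, 964 passed 0.01, 290 a 2-fold change, 1946 were called with gene means, 2134 with the control arrays alone, 403 without the replicate block and 1673 with replicate number 3 left out of all groups, an alternative chosen after seeing the data. Single arrays left out gave 1241 (without control 24 h replicate 3) to 4219 (without Kbr 48 h replicate 3). The causes were not tested. Of 171 named probe sets 146 were called, none reversed in any alternative run, and 87 kept the call under every alternative but the stricter p. Genes at the lower end of the scale, such as SLC7A11, GOSR2 and TXNIP, have folds limited by background.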
